A study of Arabidopsis thaliana with 42 samples.

Results

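The response of Arabidopsis thaliana seedlings to 30 min of heat was compared between wild type and a mutant short of nonsense-mediated decay (NMD). The comparison is the difference between 2 changes, 30 min against 0 min in the mutant and 30 min against 0 min in wild type, so a positive value means that a gene rose more, or fell less, in the mutant. It rests on 12 of the 42 libraries of the series, chosen by the genotype, treatment and time in their labels, with 3 libraries in each of 4 groups. Wild type is the accession Columbia-0 (WT). The mutant, upf, is in the same background and carries the alleles upf3-1 and upf1-5. Seedlings of both genotypes were 10 days old and were sampled before heat (0 min) or after 30 min at 44 °C in liquid MS medium in the light, with no other agent, and each replicate came from many plants. No group was held unheated after 0 min, so a change with heat cannot be told apart from a change with time since 0 min.

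NMD is a surveillance pathway of the cytoplasm that degrades messenger RNAs on which ribosomes stop early, for example at a stop codon far upstream of the last exon junction or in a reading frame upstream of the main one. UPF1, an RNA helicase, and UPF3, which binds exon junction complexes, are core factors, and in plants the pathway also restrains many intact messages, among them those of immune receptors. In heat, plants activate heat shock factors of the HSFA1 class, which bind heat shock elements in promoters and raise chaperones and further factors such as HSFA2, which prolongs the response.

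Whole seedlings were sequenced as stranded mRNA libraries, and levels below are the deposited normalized counts, averaged over the 2 lanes of a library and summed over the transcripts of a gene. The summed normalized counts were 16.2 ± 0.40 M in WT at 0 min and 23.4 ± 0.173 M at 30 min, and 15.2 ± 0.671 M and 22.4 ± 2.88 M in upf (SD, n = 3 each, with M for 10 to the power 6). Estimated reads ran from 26.48 to 75.3 M per library, and the highest value was that of upf replicate 3 at 30 min, which also had the lowest mean correlation with its replicates (0.975). UPF1 stood at 2310, 2086 and 2052 in WT and at 806, 614 and 487 in upf at 0 min, and UPF3 at 652, 642 and 669 in WT and at 198, 164 and 148 in upf. Both targeted genes were thus lower in every upf library than in every WT library at 0 min, by 1.78 and 1.95 on the log2 scale, and their own heat responses differed by 0.01 and 0.02 between the genotypes. The 22 photosynthesis genes, which mark the green shoot, summed to 1813832 to 1918582 in WT and 1389408 to 1704317 in upf at 0 min, with no overlap, and to 2164994 to 2421082 in WT and 1557226 to 2683406 in upf at 30 min, where the median of upf was 1629080. Seed storage and maturation genes, which mark dry or young seed, summed to 244 to 8624 in WT at 0 min, 6412 to 10466 in upf at 0 min, 160 to 1816 in WT at 30 min and 1935 to 5322 in upf at 30 min. Root markers summed to 31236 to 42266 and 10572 to 18062 in WT and to 27479 to 30724 and 9008 to 10274 in upf. The part of these marker levels in the results was not tested. In such bulk samples fewer cells of a type and less RNA per cell cannot be told apart.

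In 220 of 20747 genes tested (1.06%) the heat response differed between the genotypes by limma with Benjamini-Hochberg adjustment, at an adjusted p under 0.05 and a difference of at least 2-fold. The response was higher in upf for 143 genes (0.689%) and lower for 77 (0.371%), and the median over all genes was 0.02 on the log2 scale. By the same rule 5869 genes (28.3%) changed with heat in WT, 2379 up (11.5%) and 3490 down (16.8%), and 5051 (24.3%) in upf, 2218 up (10.7%) and 2833 down (13.7%). The share of these calls that was up was 40.5% in WT and 43.9% in upf. With libraries scaled to equal totals it was 19.8% in both, with the median of all genes at -0.64 in place of -0.12 in WT and at -0.62 in place of -0.07 in upf. The share of response differences that was higher in upf moved from 65% to 61.3%, and the median of all genes stayed within 0.02 of 0. Of the 220 genes, 101 (54 higher and 47 lower) were called in each of the 12 fits that left out 1 library.

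Most genes with a higher response in upf were genes that fell in WT. Of the 143, 114 (79.7%) fell in WT, and 89 of these were not called in upf, 24 fell there too and 1, the uncharacterized gene AT4G12735, named here after its values were seen, rose. Over all genes tested 5.58% fell in WT and were not called in upf. The median of the 143 was -1.73 with heat in WT and -0.30 in upf. Compared directly, 1550 of all genes (7.47%) differed between the genotypes at 0 min, 1243 (5.99%) being higher and 307 (1.48%) lower in upf, and 2031 (9.79%) at 30 min, 1698 (8.18%) higher and 333 (1.61%) lower. Of the 143, 76 were higher in upf than in WT at 30 min only, 41 at both times and 16 at neither, while 9 were lower in upf at 0 min only and 1 at both times. Over all genes tested 3.83% were higher in upf at 30 min only and 4.36% at both times.

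Genes with a lower response in upf were mostly genes that heat raised in WT. Of the 77, 69 (89.6%) rose in WT, of which 41 also rose in upf and 28 were not called there, and the medians were 3.00 in WT and 1.25 in upf. Over all genes tested 9.69% rose in both genotypes, and 1.77% rose in WT and were not called in upf. The 77 fell into 2 main kinds by where the genotypes differed: 33 were higher in upf at 0 min only, and 28 were lower in upf at 30 min only. Over all genes tested 1.63% and 1.13% did so. Of the 77, a further 13 differed at neither time by the call rule, 2 were higher in upf at both times and 1, AT4G24420, was higher at 0 min and lower at 30 min. The shares among the called genes are a description and follow in part from how the difference is built, so no test is given for them.

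**Figure D1:**
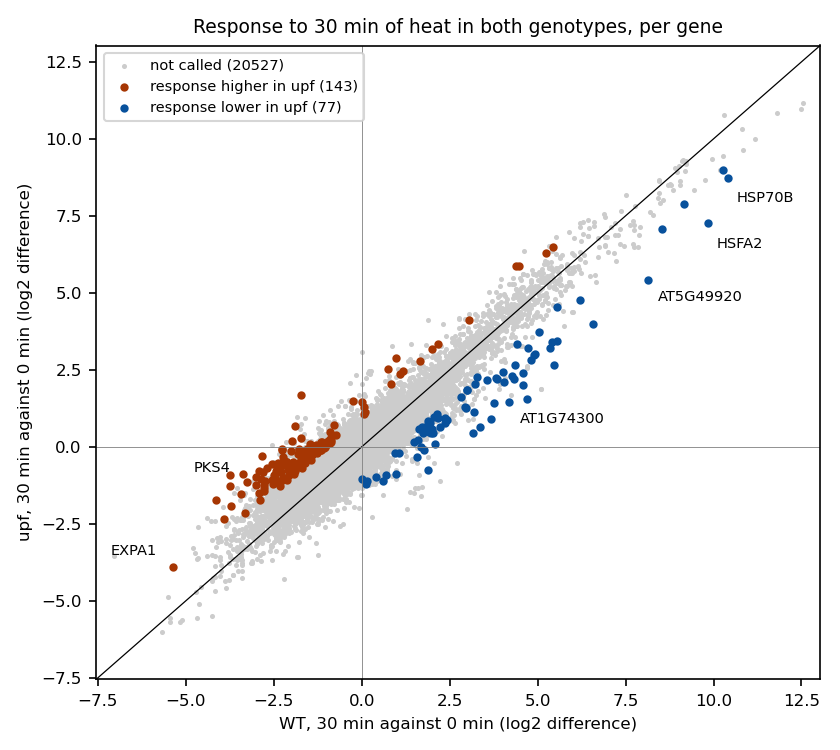
Each point is a gene, with the log2 difference of 30 min against 0 min in WT on the x axis and in upf on the y axis, and the 220 genes called for the difference are coloured. Most of the 143 genes with the higher response in upf lie left of 0 on the x axis and above the diagonal, and most of the 77 with the lower response lie right of 0 and below it.

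The first gene of the kind that already stood high in unheated upf is HSFA2 (AT2G26150, chr2:11135624-11137792, plus strand), the heat-induced factor that prolongs the heat shock response. The 250 bases before its annotated start (chr2:11135374-11135623, TAIR10.1, plus strand) are printed because they hold the heat shock element sought here, in capitals.
HSFA2 promoter: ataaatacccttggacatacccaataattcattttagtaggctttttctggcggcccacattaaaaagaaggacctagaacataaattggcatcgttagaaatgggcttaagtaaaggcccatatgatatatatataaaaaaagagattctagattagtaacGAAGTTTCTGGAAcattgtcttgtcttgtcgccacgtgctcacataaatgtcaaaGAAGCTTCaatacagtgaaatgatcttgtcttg
The first run of capitals is 1 match to the long element, which joins 3 alternating blocks (GAA, any 2 bases, TTC, any 2 bases and GAA, or the reverse complement of this, on both strands), and it holds 2 overlapping matches to the short one (GAANNTTC or TTCNNGAA), and the second run is the third short match. HSFA2 stood at 84, 136 and 116 normalized counts in WT at 0 min and at 96265, 103014 and 108742 at 30 min. In upf it stood at 510, 550 and 836 at 0 min and at 100274, 91734 and 93054 at 30 min. Every unheated upf library was above every unheated WT library, while the heated libraries of the genotypes overlapped. Its response was lower in upf by 2.59 on the log2 scale (difference -2.59, SE 0.23, adjusted p = 8.47e-09), made of a rise of 9.86 in WT and of 7.26 in upf, with upf above WT by 2.48 at 0 min and at -0.11 against WT at 30 min.

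The 4 annotated HSFA2 transcripts differed in this. Transcripts 2 and 3 hold a 31-base exon (chr2:11136246-11136276, plus strand) that transcripts 1 and 4 lack. It is printed because a stop codon, in capitals, lies in it.
HSFA2 exon of transcripts 2 and 3: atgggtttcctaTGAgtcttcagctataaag
Read from the start codon of transcript 1 at position 11135856, 103 codons precede the exon and the frame ends at this stop after 107 codons, against 345 codons in transcripts 1 and 4. The stop lies 788 nt before the last exon junction in transcript 3 and 16 nt before it in transcript 2. The annotation starts the coding sequence of transcripts 2 and 3 further downstream (873 nt), so it lists no early stop for them. Transcripts 2 and 3 together made up 37.5, 48.3 and 55.6% of the gene's normalized counts in WT at 0 min and 97.4, 93.5 and 82.7% in upf at 0 min. At 30 min they made up 14.6, 13.6 and 11.4% in WT and 13.9, 14.4 and 9.04% in upf. The genotypes were apart before heat and overlapped after it.

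By transcript, the difference of heat responses sat in the forms with the exon. Transcript 2 stood at 15, 22.5 and 23 in unheated WT and at 166, 178 and 322 in unheated upf, and transcript 3 at 16.5, 43 and 41.5 and at 330, 336 and 368. At 30 min transcript 2 stood at 9016, 10126 and 9157 in WT and at 9880, 9094 and 2610 in upf, and transcript 3 at 5050, 3906 and 3190 and at 4062, 4109 and 5801. The forms with the exon were thus apart between the genotypes at 0 min and overlapped at 30 min. Their responses were lower in upf by 3.97 and 3.23 on the log2 scale (differences -3.97 and -3.23, SE 0.50 and 0.43, adjusted p = 3.12e-05 and 6.00e-05). The forms without the exon were not called, at -0.40 for transcript 1 (SE 0.63, adjusted p = 0.995) and 0.78 for transcript 4 (SE 0.58, adjusted p = 0.881). In usage, the change of a transcript against the other transcripts of its gene, transcript 4 had the higher response in upf (3.31, adjusted p = 0.00122) and transcript 2 the lower (-3.02, adjusted p = 0.00487), and the call of transcript 2 was lost without upf replicate 3 at 30 min (-2.39, adjusted p = 0.0739) and with lane 2 only (-2.71, adjusted p = 0.0558). With the 12 libraries fitted alone neither usage call held (adjusted p = 0.138 for transcript 4 and 0.211 for transcript 2). Transcripts 3 and 1 were not called in usage (-2.03 and 1.74, adjusted p = 0.213 and 0.393), but were without upf replicate 3 at 0 min (-2.66 and 2.30, adjusted p = 0.00478 and 0.0314).

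**Figure D2:**
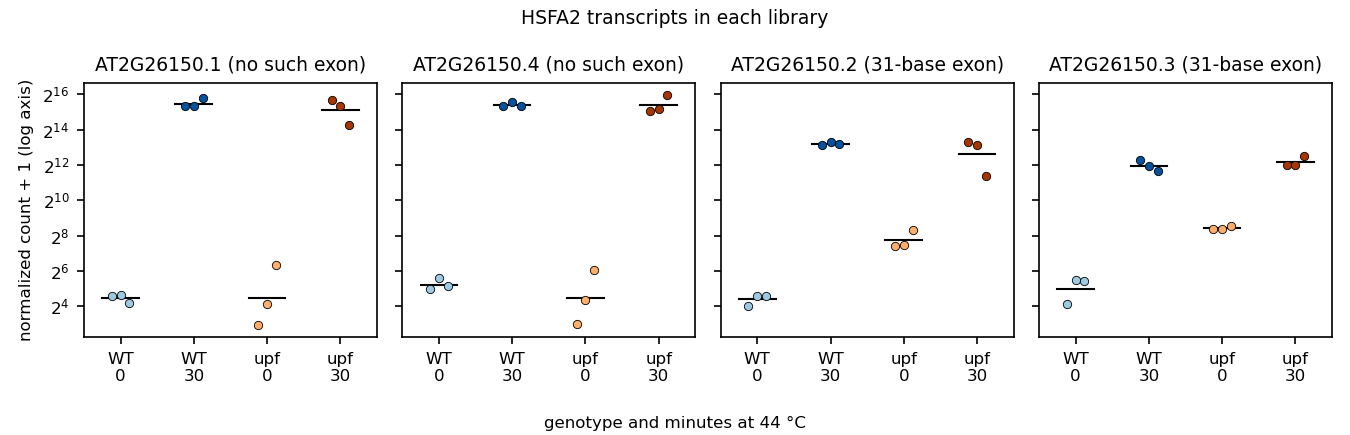
Each panel gives 1 HSFA2 transcript, with the normalized count plus 1 on a log axis in each of the 12 libraries and a line at the mean of the log values of a group. Transcripts 2 and 3, with the 31-base exon, lie between 166 and 368 in unheated upf and between 15 and 43 in unheated WT, and after heat the genotypes overlap, from 2610 to 10126.

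Among 28 chaperones and co-chaperones tested, 4 had a lower response in upf and none a higher one. Of the 28, 23 lay below 0, and the median was -0.32. Over all genes 0.371% were called lower and 47.3% lay below 0, with a median of 0.02. Of the 272 genes that heat raised at least 8-fold in WT, to a mean of at least 1000, 12 (4.41%) were called lower. Of these 272, 60.7% lay below 0, with a median of -0.10. Heat raised 26 of the 28 chaperones in WT and 25 in upf, with medians of 4.92 and 4.57. The clearest of the 4 was HSP70B (AT1G16030), a heat-induced cytosolic HSP70. It stood at 110, 135 and 184 in WT and at 370, 368 and 570 in upf at 0 min, and at 197750, 195352 and 185360 in WT and at 177768, 159386 and 218044 in upf at 30 min. As for HSFA2, the genotypes did not overlap before heat and did after it, and the response was lower in upf by 1.67 (difference -1.67, SE 0.31, adjusted p = 0.00193).

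HSP101 (AT1G74310), the disaggregase that heat tolerance depends on, stood at 488, 745 and 624 in WT and at 1078, 1158 and 1638 in upf at 0 min, and at 371122, 346294 and 327986 in WT and at 269286, 250456 and 415355 in upf at 30 min. Its unheated groups did not overlap, and its difference was -1.25 (SE 0.30, adjusted p = 0.022). This call was lost without WT replicate 1 at 0 min (-1.09, adjusted p = 0.0769), WT replicate 1 at 30 min (-1.21, 0.0607), upf replicate 3 at 0 min (-1.07, 0.0916), or upf replicate 1 or 2 at 30 min (-1.17 and -1.11, 0.0683 and 0.0811). HSA32, which keeps acquired heat tolerance, had a difference of -1.03 (SE 0.18, adjusted p = 7.67e-04) and fell under 2-fold without WT replicate 3 at 0 or 30 min, upf replicate 2 or 3 at 0 min, or upf replicate 3 at 30 min (-0.99 to -0.89). BAG6, a co-chaperone of the BAG family, had a difference of -1.29 (SE 0.33, adjusted p = 0.0316), which was lost without WT replicate 1 or 2 at 0 min, WT replicate 1 or 2 at 30 min, upf replicate 3 at 0 min, or upf replicate 1 or 2 at 30 min (-1.29 to -0.97). HSP90.1, HSP90.2 and HSP90.3, cytosolic HSP90 chaperones, had differences of -0.38, -0.24 and -0.14, none of them called (adjusted p = 0.775, 0.908 and 0.983).

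None of the 16 small heat shock proteins, which hold unfolding proteins, was called by limma, and 4 had an unadjusted p under 0.05 (1 higher and 3 lower). Of the 16, 11 lay below 0 with a median of -0.33, beside 60.7% and -0.10 for the 272 genes raised at least 8-fold. Heat raised all 16 in both genotypes, with medians of 9.20 in WT and 9.15 in upf, and HSP17.6A-CI, for example, was at 10.82 and 10.31 (difference -0.50, SE 0.50, adjusted p = 0.913). Members of this family are similar in sequence, so their reads may be split unevenly among them.

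Of 24 heat shock and related factors, none had a higher response in upf, and the median was -0.14. A lower response was called in 2 of them, against 0.371% of all genes. Beside HSFA2 this was HSFA1E (AT3G02990), of the class that starts the response. HSFA1E stood at 48, 47.5 and 47 in WT and at 246, 220 and 216 in upf at 0 min, and at 239, 286 and 166 in WT and at 273, 358 and 474 in upf at 30 min. Unheated upf thus already held about the level of heated WT, and the heated groups overlapped. The response was a rise of 2.22 in WT and of 0.66 in upf (difference -1.56, SE 0.21, adjusted p = 3.80e-05). HSFA3, another heat-induced factor, had a difference of 0.73 (SE 0.24, adjusted p = 0.15), and HSFA1A, HSFA1B and HSFA1D lay between -0.33 and 0.13 and were not called.

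Other genes of the same kind lay outside the heat lists. AT5G18065 (chr5:5978546-5980599), annotated as a target of trans-acting small RNAs, stood at 48.5, 58.5 and 43.5 in WT and at 263, 280 and 376 in upf at 0 min, and at 630, 610 and 862 in WT and at 870, 798 and 796 in upf at 30 min. The genotypes were apart before heat only (difference -2.34, SE 0.20, adjusted p = 2.53e-09). The other 3 tested members of the list of trans-acting small RNA targets, HTT1, HTT2 and AT1G51670, had differences of -0.54, -0.36 and -1.28 and were not called (adjusted p = 0.679, 0.581 and 0.278). AT2G45360, a DUF1442 protein, and AT1G50390, related to pfkB carbohydrate kinases, were at 0 to 4.5 in unheated WT and at 6 to 20 in unheated upf. After heat the transcript AT2G45360.1 stood at 116, 91.5 and 85 in WT and at 43, 41 and 81.5 in upf. It was thus also lower in every heated upf library, by 0.87 on the log2 scale, so its difference does not come from the unheated groups alone. The differences of AT2G45360 and AT1G50390 were -2.82 (SE 0.48, adjusted p = 6.79e-04) and -2.15 (SE 0.36, adjusted p = 6.16e-04). That of AT1G50390 was -0.82 and not called with a pseudocount of 10 (adjusted p = 0.0762).

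Of 28 immunity genes 1 was called, WRKY70, a factor of salicylic acid responses, against 1.06% of all genes. The list median was 0.04. WRKY70 stood at 36, 30.5 and 17.5 in WT and at 256, 132 and 266 in upf at 0 min, and at 329, 418 and 470 in WT and at 1303, 870 and 764 in upf at 30 min. The genotypes did not overlap at either time, and the gap was narrower after heat (difference -1.66, SE 0.36, adjusted p = 0.00877). Of the 28, 11 were higher in upf at 0 min and 12 at 30 min, against 5.99% and 8.18% of all genes. PR1, the marker of salicylic acid signalling, stood higher in upf by 9.08 and 7.19 at these times (difference -1.88, SE 1.42, adjusted p = 0.814). Among 20 rapidly induced genes, which rise within minutes of many stresses, CML37, a calmodulin-like calcium sensor, was the 1 called, against 1.06% of all genes. CML37 stood at 3, 1 and 2 in WT and at 13.5, 11 and 17 in upf at 0 min, and at 1233, 948 and 1070 in WT and at 2639, 1598 and 1756 in upf at 30 min. It was higher in every upf library at both times, and its difference of -1.49 (SE 0.32, adjusted p = 0.00911) rested on the low unheated values and was -0.14 with a pseudocount of 10 (adjusted p = 0.989). ZAT10, ZAT12 and ZAT6, zinc finger factors of the same list, rose by 5.68 to 6.22 in WT and had differences between -0.09 and 0.18 that were not called.

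A pattern of position among the 77 genes with the lower response was noticed in the values and is given as a description, with no test. It took in genes of the other kind, called lower in upf at 30 min only, but not only these. HSP101 and PRF4, for example, stood higher in every unheated upf library than in every unheated WT library and overlapped at 30 min. Nor were all genes of the other kind level before heat. AT1G74300 and AT3G24000 were higher in every unheated upf library too, by 0.90 and 0.97 on the log2 scale, under the 2-fold limit. A strongly raised gene is here one called higher with heat in WT by at least 8-fold and with a mean of at least 1000 in heated WT, of which there were 272. Of the 77 genes with the lower response, 14 (18.2%) lay across or within 2000 bases past the 3′ end of such a gene, 7 on the same strand and 7 on the opposite one. The same held for none of the 143 genes with the higher response and for 228 of all 20747 genes (1.1%). Among genes raised by heat in WT but not strongly raised, 68 of 2107 (3.23%) lay there. Within 2000 bases before the start of a strongly raised gene lay 2 of the 77 (2.6%) and 170 of all genes (0.819%). Among genes raised by heat in WT but not strongly raised, 57 of 2107 (2.71%) lay before a start, a share near that of the 77.

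The level in heated WT is part of the difference, so genes chosen as raised in WT are given beside all genes at the same positions. All 217 genes past a 3′ end that were not strongly raised themselves had a median difference of -0.16. Of the 217, 135 (62.2%) lay below 0 and 11 (5.07%) were called lower. Of 149 further genes before a start, not strongly raised either, 59.1% lay below 0 and 1 (0.671%) was called lower, with a median of -0.06. Below 0 lay 60.7% of the strongly raised genes themselves and 47.3% of all genes tested. Among the 68 of the 217 that heat raised in WT, the median for upf against WT was 0.01 at 0 min and -0.72 at 30 min. Of the 68, 10 (14.7%) had a called lower response, and 56 (82.4%) lay below 0 with a median difference of -0.82. Of the 2039 other heat-raised genes, outside both windows or before a start, 47 (2.31%) were called lower, 61.4% lay below 0 and the median difference was -0.12. The 53 that lay before a start had a median of -0.13, and the strongly raised genes themselves one of -0.10. The sources used here do not say whether reads were counted by strand, and the part that reads from the neighbour have in these values was not tested.

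**Figure D3:**
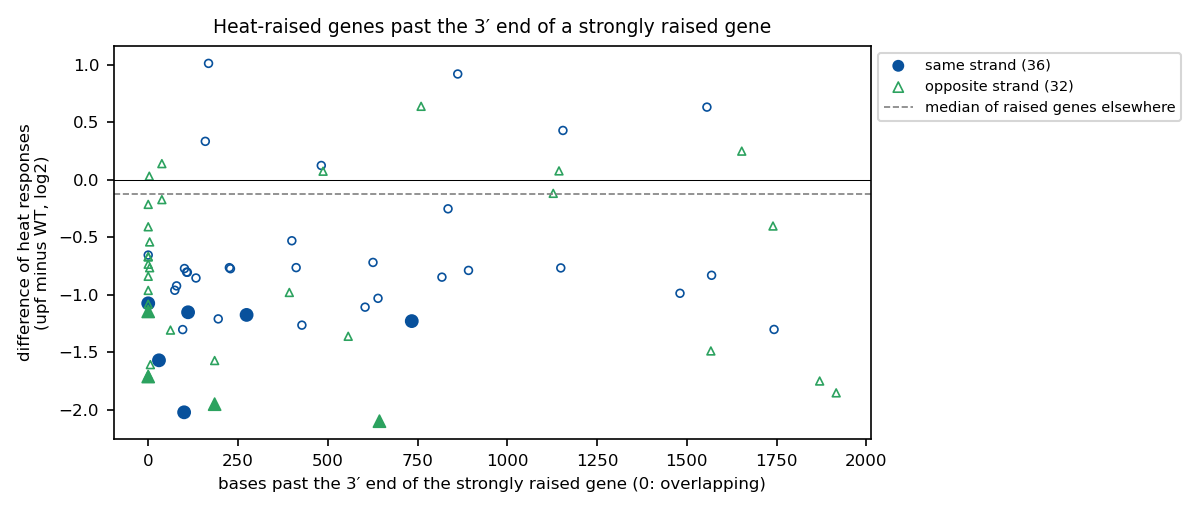
Each point is 1 of the 68 heat-raised genes past the 3′ end of a strongly raised gene, by distance in bases on the x axis and by the difference of heat responses (upf minus WT, log2) on the y axis, with filled points for the 10 called lower. Points on both strands lie mostly below 0 and below the dashed line, the median of -0.12 of heat-raised genes elsewhere.

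Several of these genes stood in runs behind a heat shock gene that was not itself called for the difference. On chromosome 4, HSP23.6, the mitochondrial small heat shock protein, stood at 58402, 62091 and 70249 in heated WT and at 60454, 51952 and 73956 in heated upf. Its difference was -0.96 with a wide error (SE 0.57, adjusted p = 0.67), near in size to that of the next gene. AT4G25210, a storekeeper-related factor that begins 111 bases past its end on the same strand, stood at 738, 768 and 694 in WT and at 649, 717 and 772 in upf at 0 min. At 30 min AT4G25210 stood at 6755, 5392 and 5493 in WT and at 2937, 2602 and 2185 in upf. HSP23.6 overlapped between the genotypes at 30 min, while AT4G25210 overlapped at 0 min only (difference -1.15, SE 0.17, adjusted p = 1.43e-04). The next gene, G3Pp2 (AT4G25220), named for a glycerol-3-phosphate permease, stood at 18, 9.5 and 14.5 in WT and at 20, 22.5 and 21 in upf at 0 min, and at 190, 120 and 95 in WT and between 21 and 43.5 in upf at 30 min. It lies 2631 bases past the end of HSP23.6, beyond the 2000-base window. It rose in WT and was not called in upf (0.44, adjusted p = 0.346), and its difference was -2.73 (SE 0.54, adjusted p = 0.0041).

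On chromosome 5 the mitochondrial HSP70 gene MTHSC70-2 (difference -0.40, SE 0.24, adjusted p = 0.684) is followed on the same strand by SDH3-1, a subunit of succinate dehydrogenase, and PUM21, a pumilio RNA-binding protein. SDH3-1 had a difference of -0.96, under the 2-fold limit (SE 0.19, adjusted p = 0.0039). PUM21 stood at 4, 2.5 and 2 in WT and at 2, 4.5 and 5.5 in upf at 0 min, and at 110, 93 and 70 in WT and at 11, 19 and 28.5 in upf at 30 min. The heated groups did not overlap (difference -2.58, SE 0.54, adjusted p = 0.00673). PUM21 lies 2114 bases past the end of MTHSC70-2, beyond the window. SDH3-1 overlaps it by position (2978825 to 2981096 and 2980865 to 2982819), so their reads may not be told apart in full.

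Elsewhere on chromosome 5, CLPB3, the plastid disaggregase (difference -0.38, SE 0.26, adjusted p = 0.762), overlaps by 70 bases the end of EDL1, an F-box gene on the opposite strand, and AT5G15430, a calmodulin-binding protein, lies beyond EDL1. EDL1 stood at 528, 517 and 350 in heated WT and at 218, 206 and 162 in heated upf (difference -1.14, SE 0.23, adjusted p = 0.00516). AT5G15430, which lies 2355 bases past the end of CLPB3, stood at 2, 3.5 and 5 in unheated WT, at 4, 1.5 and 2 in unheated upf, and at 150, 114 and 81 in heated WT and 7.5, 10.5 and 8.5 in heated upf. Both genes were apart between the genotypes after heat only, and AT5G15430 had the lowest difference of all called genes (-3.15, SE 0.57, adjusted p = 0.00138).

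HSP17.8-CI (difference 0.14, SE 0.46, adjusted p = 0.996) on chromosome 1 is followed on its strand by RABA2b, a RAB GTPase, and SMO2-1, a sterol methyl oxidase, with HAI2, a PP2C phosphatase of abscisic acid signalling, beyond them on the other strand, 4962 bases past its end. RABA2b was itself strongly raised, by 6.50 in WT, and SMO2-1 begins 30 bases past the end of RABA2b. RABA2b stood at 2826, 2469 and 2598 in heated WT and at 844, 983 and 864 in heated upf, and its difference was -0.95 (SE 0.31, adjusted p = 0.145). SMO2-1 stood at 970, 772 and 768 and at 389, 420 and 292 in the same groups (difference -1.57, SE 0.27, adjusted p = 6.69e-04). HAI2 stood at 192, 162 and 99 and at 50, 64 and 76.5 (difference -1.86, SE 0.48, adjusted p = 0.0356). None of the 3 overlapped between the heated groups. The call of HAI2 was lost in 8 of the 12 fits that left out a library, all but those without WT replicate 1 at 0 min, WT replicate 3 at 30 min, upf replicate 2 at 0 min or upf replicate 3 at 30 min (-1.89 to -1.66).

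**Figure D4:**
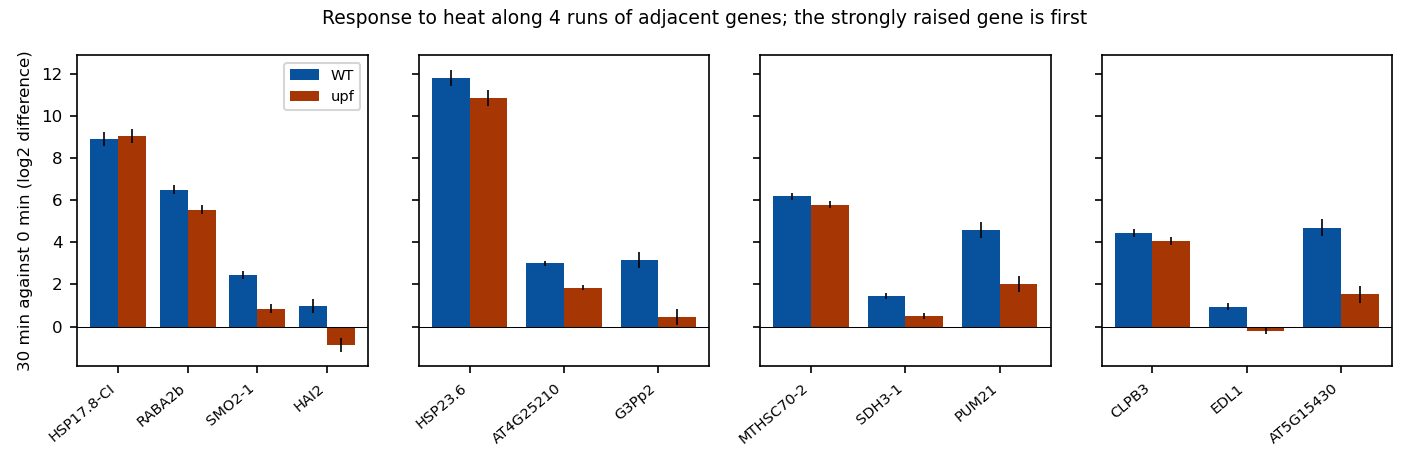
Bars give the log2 difference of 30 min against 0 min in WT and in upf, with standard errors, along 4 runs of adjacent genes that each begin with a strongly raised gene. The first gene of each run was not called for the difference, that of HSP23.6 being 11.80 in WT and 10.85 in upf, and the last gene of each run has the lower bar in upf, as for AT5G15430 at 4.70 in WT and 1.54 in upf.

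The other genes past a 3′ end were less uniform. AT1G74300, an alpha/beta hydrolase that ends across the 3′ end of HSP101 on the opposite strand by 101 bases, stood at 68.5, 64.5 and 59.5 in WT and at 137, 110 and 116 in upf at 0 min, and at 1398, 1106 and 1097 in WT and at 381, 298 and 322 in upf at 30 min. It was above WT in every unheated upf library and below it in every heated one (difference -2.75, SE 0.25, adjusted p = 1.05e-08). AT1G74300 and HSP101 were both strongly raised, so each counts as the neighbour of the other. AT3G24000, a TPR-like protein 139 bases past HSP60, stood at 85.5, 100 and 92 in WT and at 184, 198 and 165 in upf at 0 min. After heat AT3G24000 stood at 2576, 2141 and 2094 in WT and at 814, 982 and 1143 in upf (difference -2.18, SE 0.30, adjusted p = 3.81e-05). HSP60 itself stood at 15174, 16556 and 16521 in heated WT and at 13008, 14108 and 16916 in heated upf. AT3G24000 was separate between the genotypes at both times, higher in unheated upf and lower in heated upf, while HSP60 overlapped after heat.

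AT1G79915, a putative methyltransferase near Hsp70-15, had a difference of -2.10 (SE 0.43, adjusted p = 0.00516), AT1G53541 near HSP17.6C-CI one of -1.95 (SE 0.37, adjusted p = 0.00219) and PRF4, a profilin near DER1, one of -2.02 (SE 0.40, adjusted p = 0.00387). PRF4 stood at 15.5, 5.5 and 18 in WT and at 47.5, 46 and 49.5 in upf at 0 min, and at 470, 479 and 694 in WT and at 462, 499 and 574 in upf at 30 min, so that it was apart before heat and overlapped after it. AT3G07080, annotated as an EamA-like transporter, stood at 472, 326 and 322 in heated WT and at 123, 110 and 96.5 in heated upf beside the overlapping AT3G07090. The remaining 4 were AT5G12120 (-1.14), TIM17-3 (-1.17), AT5G10710 (-1.23) and AT1G19025 (-1.07). AT1G19025 fell under 2-fold without WT replicate 3 at 0 min, WT replicate 1 at 30 min or upf replicate 3 at 0 min (differences between the limit and -0.93). AT5G49920, with a PB1-type domain, overlaps CPHSC70-2, a plastid HSP70 that heat raised by less than 8-fold, and stood at 2.5, 3.5 and 2 in WT and 15.5, 10 and 15 in upf at 0 min and at 1045, 862 and 1144 in WT and 606, 544 and 676 in upf at 30 min. It was apart in opposite directions at the 2 times (difference -2.72, SE 0.30, adjusted p = 7.60e-07). AT4G24420, an RNA-binding protein that is not among the 14, stood at 2.5, 1 and 0.5 in unheated WT and 2.5, 3 and 5 in unheated upf, and at 212, 213 and 196 in heated WT and 67.5, 87.5 and 56 in heated upf (difference -2.56, SE 0.40, adjusted p = 1.84e-04).

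The 12 genes with the highest differences among those called in every fit without a library were of many kinds, and AT5G02670, PKS4 and AT3G49970 overlapped between the genotypes before heat and were apart after it. AT5G02670, which is uncharacterized (chr5:602722-604682), stood at 229, 190 and 192 in WT and at 208, 202 and 210 in upf at 0 min, and at 22.5, 34 and 27 in WT and at 197, 187 and 128 in upf at 30 min. The unheated groups overlapped and the heated ones did not (difference 2.54, SE 0.30, adjusted p = 4.12e-06), and the change in upf was not called (-0.30, adjusted p = 0.245). PKS4, a phytochrome kinase substrate of light-directed growth, stood at 262, 297 and 354 in WT and at 266, 236 and 210 in upf at 0 min, and at 32, 32.5 and 28 in WT and at 86, 129 and 107 in upf at 30 min. PKS4 fell in both genotypes, less so in upf (difference 2.1, SE 0.29, adjusted p = 3.81e-05). AT3G49970, of the NPH3 family of phototropic response, stood at 32.5, 36 and 50 in WT and at 22.5, 37 and 42 in upf at 0 min, and at 3.5, 2 and 1 in WT and at 18.0 ± 6.73 in upf (SD, n = 3) at 30 min, where the lowest upf library was at 10.5. It had the highest difference among genes called in every fit (2.83, SE 0.58, adjusted p = 0.00565).

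A second group of higher genes stood above WT in upf at both times. AT2G18560, a UDP-glycosyltransferase, stood at 294, 241 and 271 in WT and at 992, 847 and 942 in upf at 0 min, and at 45, 42 and 28 in WT and at 494, 509 and 563 in upf at 30 min. The genotypes were apart at both times, and more so after heat (difference 1.98, SE 0.32, adjusted p = 3.64e-04). AT3G18320, an F-box protein, and AT4G01740, a C1 domain protein, were alike in this, with differences of 2.02 (SE 0.45, adjusted p = 0.0103) and 1.98 (SE 0.30, adjusted p = 1.28e-04). AT4G09435, annotated as a disease resistance protein with TIR, NBS and LRR domains, stood at 54.5, 58 and 65 in WT and at 124, 104 and 111 in upf at 0 min, and at 2.5, 5.5 and 3 in WT and at 60.5, 50.5 and 31.5 in upf at 30 min (difference 2.46, SE 0.36, adjusted p = 9.69e-05). AT5G45460, which is uncharacterized, had a difference of 2.04 (SE 0.44, adjusted p = 0.008).

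Low levels carry some of the other large differences. AT4G09840 and AT1G21470, both uncharacterized, stood at 0 to 2 in heated WT and at 6 to 18.5 in heated upf. Their differences of 2.48 and 2.18 were 0.51 and 0.61 with a pseudocount of 10, and then not called (adjusted p = 0.271 and 0.104). AT4G34770, a SAUR-like gene, stood at 31.5, 52.5 and 49.5 in WT and at 12, 19 and 10 in upf at 0 min and at 4.5 or less in all heated libraries (difference 2.41, SE 0.43, adjusted p = 0.00131). AT3G24255, related to reverse transcriptases, had a difference of 2.12 (SE 0.44, adjusted p = 0.00565).

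**Figure D5:**
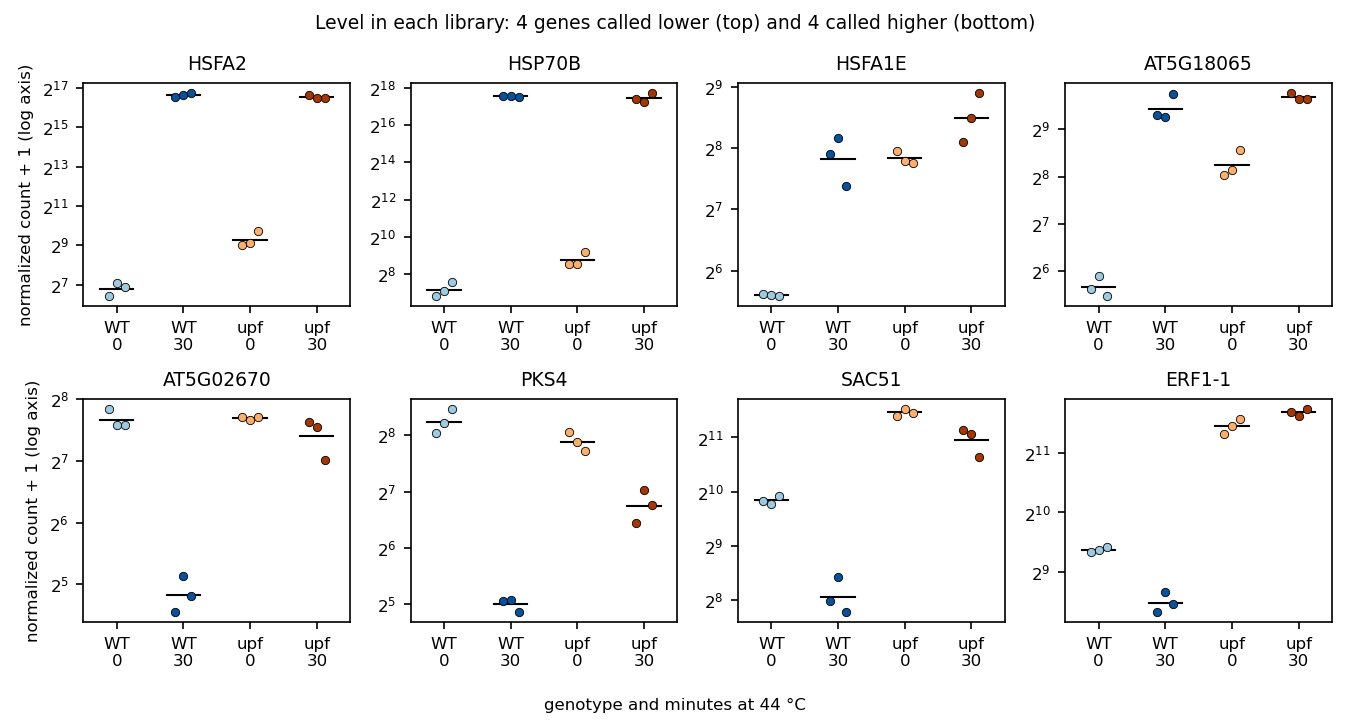
Points give the normalized count plus 1 on a log axis in each of the 12 libraries for 4 genes with the lower response in upf (top) and 4 with the higher one (bottom), and lines the mean of the log values of a group. HSFA2, HSP70B, HSFA1E and AT5G18065 are apart between the genotypes before heat, and AT5G02670 and PKS4 only after it.

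Auxin-responsive genes included 3 of 29 with a higher response in upf, against 0.689% of all genes, and none with a lower one. Their median was 0.27 in the difference, -2.56 with heat in WT and -1.99 in upf. All 3 encode Aux/IAA repressors of auxin signalling. IAA2 stood at 928, 1062 and 1141 in WT and at 862, 864 and 870 in upf at 0 min, and at 1070, 996 and 1104 in WT and at 2930, 2702 and 1677 in upf at 30 min. It was level in WT, and every heated upf library was above all others (difference 1.43, SE 0.21, adjusted p = 8.65e-05). IAA4 stood at 640, 671 and 670 in WT and at 606, 998 and 866 in upf at 0 min, and at 47, 75 and 62 in WT and at 376, 420 and 135 in upf at 30 min (difference 1.90, SE 0.46, adjusted p = 0.0249). The IAA4 call was lost without WT replicate 2 or 3 at 0 min, WT replicate 1 at 30 min, upf replicate 1 at 0 min, or upf replicate 1 or 2 at 30 min (1.60 to 1.89). IAA3 had a difference of 1.14 (SE 0.31, adjusted p = 0.0459), which was lost in 9 of the 12 fits without a library, all but those without WT replicate 3 at 0 min, upf replicate 2 at 0 min or upf replicate 3 at 30 min (0.98 to 1.18). Both calls were also lost with libraries scaled to equal totals (adjusted p = 0.0813 for IAA4 and 0.143 for IAA3). Among expansins and growth genes, 1 of 19 was called, EXPA1, which loosens cell walls, against 1.06% of all genes. EXPA1 stood at 196, 170 and 106 in heated WT and 263, 365 and 326 in heated upf after 4290 to 6875 before heat (difference 1.46, SE 0.31, adjusted p = 0.008).

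Of genes with conserved upstream reading frames, a feature that can make a message a target of NMD, 3 of 19 had a higher response in upf, against 0.689% of all genes. None was lower, and the median was 0.16. Of the 19, 6 were higher in upf at 0 min and 10 at 30 min, against 5.99% and 8.18% of all genes. SAC51, a bHLH factor whose upstream frames respond to thermospermine, stood at 908, 876 and 964 in WT and at 2708, 2948 and 2810 in upf at 0 min, and at 254, 342 and 220 in WT and at 2252, 2148 and 1590 in upf at 30 min. The genotypes were apart at both times, and SAC51 fell by 1.77 in WT and by 0.51 in upf (difference 1.26, SE 0.27, adjusted p = 0.00704). Its relative SACL1 had a difference of 1.09 (SE 0.29, adjusted p = 0.0495), lost in 10 of the 12 fits without a library, all but those without WT replicate 2 at 30 min or upf replicate 3 at 30 min (0.88 to 1.17), and with equal totals (1.07, adjusted p = 0.196). BZIP1, a factor of low-energy responses, stood at 342, 346 and 434 in WT and at 230, 274 and 318 in upf at 0 min, and at 99.5, 126 and 162 in WT and at 272, 282 and 228 in upf at 30 min. BZIP1 was lower in every unheated upf library than in every unheated WT library and higher in every heated one (difference 1.48, SE 0.28, adjusted p = 0.00209), while BZIP11, BZIP2, BZIP53 and BZIP44 lay between -0.23 and 0.65 and were not called.

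Of 13 known NMD targets, 2 had a higher response in upf, SAC51 again and ERF1-1, against 0.689% of all genes. None had a lower one, and the median was 0.49, with 3 of 13 below 0, against 47.3% of all genes. ERF1-1 encodes eukaryotic release factor 1, which ends translation at stop codons. It stood at 646, 660 and 682 in WT and at 2552, 2802 and 3018 in upf at 0 min, and at 322, 406 and 354 in WT and at 3284, 3120 and 3405 in upf at 30 min. It fell in WT by 0.88, under the 2-fold limit, was not called in upf, and had a difference of 1.11 (SE 0.23, adjusted p = 0.00673). TFIIIA, a factor of 5S RNA genes, had a difference of 0.49 that was not called (adjusted p = 0.262). ERF1-1 was also the 1 of 15 NMD and exon junction factors called, against 1.06% of all genes. The median of these factors was -0.06.

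A further 10 genes rose in WT and more so in upf, of which 3 are given as examples chosen after their values were seen. PYL4 and PYL5, receptors of abscisic acid, rose by 2.00 and 2.16 in WT and by 3.16 and 3.34 in upf (differences 1.17 and 1.18), and MYB73 by 1.09 and 2.36 (1.27). For PYL4 the mean was 1025 in WT and 486 in upf at 0 min, and 3938 and 4353 at 30 min. Its genotypes were thus called apart before heat, with upf lower, and not after it. All 3 calls were near the threshold (adjusted p = 0.0395, 0.0267 and 0.0336) and were lost in at least 1 of the fits without a library. In the list of abscisic acid and cold genes HAI2 was the 1 of 14 called, against 1.06% of all genes. Of the 14, 13 lay below 0, against 47.3% of all genes, with a median of -0.63.

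No member was called by limma in the remaining lists. Of these, jasmonate genes (11 tested, 1 with an unadjusted p under 0.05) rose in both genotypes, with medians of 5.20 and 5.18 for the heat response and 0.24 for the difference. The 21 genes that respond to unfolded proteins in the endoplasmic reticulum had a median of 0.06 and none with an unadjusted p under 0.05, and BIP1, the HSP70 of that compartment, rose by 2.80 in WT and 2.87 in upf. The 20 SR proteins, splicing regulators many of which have NMD-sensitive forms, had a median of 0.00 (2 with an unadjusted p under 0.05), the 15 other splicing factors 0.03 (none) and the 19 mRNA decay factors -0.04 (none). Ribosomal proteins (13) and photosynthesis genes (22) had medians of 0.06 and 0.01, with none under an unadjusted p of 0.05, and 15 clock genes one of -0.10 (1). Among 13 redox genes (median 0.27, 1 under an unadjusted p of 0.05), APX2, the heat-induced ascorbate peroxidase, had a difference of -1.08 that just missed the threshold (SE 0.31, adjusted p = 0.0656), and was called with equal totals (-1.12, adjusted p = 0.0488) and with lane 1 only (-2.11, adjusted p = 0.00115). The 10 reference genes had a median of 0.04 (none). The 9 iron deficiency genes had a median of -0.94 (1 with an unadjusted p under 0.05). Of the 9, 6 were higher in upf at 0 min and 5 at 30 min, against 5.99% and 8.18% of all genes. The 12 root markers had a median of -0.01 (2) and the 10 seed maturation genes one of -0.42 (1).

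Single transcripts were tested in the same way, and 197 of 35376 (0.557%) were called, 114 higher (0.322%) and 83 lower (0.235%). Of the 197, 119 belonged to genes called for their sum and 78 did not, and 74 were called in every fit without a library. AT1G47530.2 stood at 59, 37.5 and 67 in WT and at 100, 100 and 83 in upf at 0 min, and at 4.5, 0 and 3 in WT and at 81.5, 83.5 and 89.5 in upf at 30 min. This form nearly vanished from heated WT and not from heated upf (difference 4.12, SE 0.76, adjusted p = 0.00432), while the main form AT1G47530.1, at 1430 to 2527 in WT and 1395 to 2525 in upf, had a difference of -0.11 (adjusted p = 0.975). Forms listed at 0 in every library of a group are left out of the highest and lowest forms named here. One of these is NLP7 transcript AT4G24020.2, given below, which was called higher. Among the rest called in every fit without a library, the other highest forms were AT2G46320.2 (5.22, SE 1.01, adjusted p = 0.0071) and SEN1 transcript AT4G35770.2 (5.19, SE 0.83, adjusted p = 8.07e-04). RLP47 transcript AT4G13810.1 (3.85), AT3G06590.2 (3.20) and AT4G09435.1 (3.09) came next. SEN1 transcript 2 stood at 150, 151 and 320 in WT and 116, 114 and 169 in upf at 0 min and at 1, 22.5 and 21.5 in WT and 282, 214 and 266 in upf at 30 min, with no overlap after heat. The lowest beside the HSFA2 forms were AT5G15640.2 (-3.40, SE 0.65, adjusted p = 0.00674), AT4G24420.2 (-3.05), AT2G45360.1 (-2.82) and SDH3-1 transcript AT5G09600.2 (-2.80), the last at 724, 643 and 666 in heated WT and at 168, 216 and 71.5 in heated upf. With the 12 libraries fitted alone, all 6 of the highest forms and these 4 lowest ones lost their call (adjusted p = 0.0627 to 0.239), while HSFA2 transcripts 2 and 3 kept theirs.

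In usage 72 of 22958 transcripts (0.314%) were called, 40 higher (0.174%) and 32 lower (0.139%), in 53 genes, of which 2 were also called for level. Of the 72, 25 were listed at 0 in every library of a group. NLP7, a factor of nitrate signalling, was called for the usage of its forms. Its main form AT4G24020.1 had a difference of 0.07 in level (SE 0.21, adjusted p = 0.999). The form beside it, AT4G24020.2, stood at 63, 120 and 64 in WT and 326, 179 and 192 in upf at 0 min, was listed at 0 in all 3 heated WT libraries and stood at 152, 124 and 479 in heated upf, so no fold is given for the usage of either. The call was lost with lane 1 only (adjusted p = 0.245). LCL1, a clock-related MYB factor, had a higher usage of AT5G02840.5 (4.46, SE 0.70, adjusted p = 2.65e-05), a form that stood at 0 to 19 in all libraries. CTF2A forms 2 and 3 moved against each other (3.71 and -3.09, adjusted p = 1.43e-04 and 0.00165), as did AT5G15640.1 and AT5G15640.2 (3.60 and -3.60, adjusted p = 0.00129) and the forms of AT1G47530 (4.23 and -4.23, adjusted p = 0.00122). AT4G34140.1 and AT1G14970.1 had a higher usage (4.61 and 4.39), and AT3G06590.1 and ULT1 transcript AT4G28190.2 a lower one (-3.34 and -3.56). These usage calls depended on the settings: AT4G34140.1 and AT1G14970.1 were lost in either lane alone, LCL1 in lane 2 (2.86, adjusted p = 0.434), AT1G47530 in lane 1 (adjusted p = 0.226), and ULT1 and CTF2A transcript 3 in the 12 libraries (adjusted p = 0.0697 and 0.0981). AT5G15640 was lost with a pseudocount of 10, in the 12 libraries and in either lane, and AT3G06590.1 under these settings and without the filter (-0.88, adjusted p = 0.961). Levels of transcripts of 1 gene are estimates that divide shared reads, so values of minor forms are less certain than those of genes.

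A stop more than 50 nt before the last junction, the feature that NMD reads in many messages, was annotated in 13 of 113 transcripts with the higher response (11.5%), in 6 of 83 with the lower one (7.23%) and in 2472 of 35182 tested (7.03%). In usage it was annotated in 6 of 40 higher (15.0%), 3 of 32 lower (9.38%) and 10.3% of all tested. The long heat shock element was present in the 250 bases before the start of none of 142 higher genes, of 1 of 77 lower genes (1.3%), which is HSFA2, of 27 of 2275 genes raised by heat in WT (1.19%) and of 87 of 20552 genes tested (0.423%). The short element was present in 23.9, 19.5, 21.1 and 15.8% of these sets. Genes whose most abundant transcript has 1 exon made up 27.5% of the higher, 23.4% of the lower, 24.4% of the heat-raised and 15.6% of all genes, and the median level over the 4 groups was 197 in the higher, 173 in the lower and 231 in all genes. These are shares of matches and annotations, given without a test.

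Values at other times share the 0 min libraries with the comparison at 30 min and are set beside it only. At 15, 45 and 90 min the 143 higher genes had median differences of 0.63, 1.39 and 1.37, beside 1.33 at 30 min, and the 77 lower genes -0.58, -1.35 and -0.89, beside -1.57. Over all genes the medians were 0.01, -0.02 and -0.01. Within the lower genes, the 33 that were higher in upf at 0 min only had -0.96, -1.60 and -1.40, and the 28 that were lower at 30 min only had -0.20, -1.13 and -0.55. HSFA2 stood at -2.40, -2.56 and -2.66 at these times, whereas G3Pp2 stood at -1.13, -3.12 and -0.85, AT5G15430 at 0.23, -1.96 and -0.55 and PUM21 at -0.34, -2.64 and -0.61. Cycloheximide (CHX), an inhibitor of translation, was given to further WT seedlings with heat, and their comparison with heated WT at 30 min shares the heated WT libraries used here. Heated WT is subtracted in both, so genes chosen by the difference lean the same way in the CHX comparison. In it the medians were 1.55 in the 143 higher genes, -0.89 in the 77 lower ones and 0.06 over all genes. The 33 genes stood at -0.46 and the 28 at -1.47, and AT5G15430, G3Pp2 and PUM21 at -3.72, -2.97 and -2.97, with HSFA2 at -0.74. Some heat-raised genes not called for the difference were also lower with CHX. Examples are HSP60 (-1.31), HSP17.6C-CI (-1.13), MTHSC70-2 (-1.07), HSP17.8-CI (-0.95), HSP23.6 (-0.91) and CPHSC70-2 (-0.75). Whether the 77 genes differ in this from other heat-raised genes was not tested.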

How the data were processed

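RNA-seq levels were taken from the authors' deposited table of scores, which are counts per transcript and lane that the authors normalized and rounded to whole numbers; the submitters' processing notes name kallisto, sleuth and TAIR10, and the scaling method and the strand setting are not stated there. The authors' deposited log2 fold changes and their adjusted p-values per transcript were compared with these values for sign and base only and give no result here. Lanes were averaged (lowest lane correlation 0.920), transcripts were summed per locus, and log2(value + 1) was fitted with limma 3.58.1 (R 4.3.3) as a group-mean model over all 42 libraries and 14 groups, so that all groups share 1 estimate of the spread. Fold changes on this scale understate the change of low genes.

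The test took in 20747 genes, those that reached 10 in 3 or more libraries; p-values were adjusted by Benjamini-Hochberg over all of them, and genes were called at an adjusted p below 0.05 with a 2-fold difference. Transcripts (35376) were tested likewise and their usage (22958) with diffSplice of limma. The fits were checked on simulated data. P-values measure only the spread between these libraries, each made from many plants. Estimated reads were 26.48 to 75.3 M (10 to the power 6) and normalized totals 14.7 to 25.7 M per library; no counting interval is given, since the values are not raw counts.

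Genes were named by rule: UPF1 and UPF3, the 12 highest and 12 lowest differences among genes called in the fit and in each of 12 leave-one-out fits, every called member and up to 4 other members of 25 gene lists, and 6 transcripts each way by the same rule for level and for usage. Genes beside strongly raised ones, and others where the text says so, were named after their values were seen. The members and lists were chosen with earlier results of these data known. Alternatives were other scalings, a pseudocount of 10, no filter, the 12 libraries alone, single lanes, robust limma, a replicate block and leaving out each library. Replicate numbers are given by the labels without a shared source, and of 18 correlations between the deviations of same-numbered libraries (-0.12 to 0.29) 3 were over 0.1, so the numbers were not taken to pair the samples.

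Positions and sequences come from TAIR10.1, the RefSeq annotation, to which 48148 of 48359 transcripts (99.6%) matched, and were read with pyfaidx 0.9.0.4; tables and plots used Python 3.11.15, pandas 2.3.3, numpy 2.4.6 and matplotlib 3.10.9. Of 10 loci and targets of trans-acting small RNAs, 5 were not analysed here. The other 30 libraries enter the shared spread and the values at other times only.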

Additional observations from a re-analysis of the deposited data

Results flagged for a closer look

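Each result below had a difference between the genotypes in the response to 30 min of heat that was itself tested as an interaction term by limma with Benjamini-Hochberg adjustment and passed. The values are upf minus WT on the log2 scale.

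Among genes with the lower response in upf, those of the heat response were HSFA2 (-2.59), HSP70B (-1.67), HSFA1E (-1.56), BAG6 (-1.29), HSP101 (-1.25) and HSA32 (-1.03). Genes of stress and hormone signalling were HAI2 (-1.86), WRKY70 (-1.66) and CML37 (-1.49). The other lower genes were AT5G15430 (-3.15), AT2G45360 (-2.82), AT1G74300 (-2.75), G3Pp2 (-2.73), AT5G49920 (-2.72), PUM21 (-2.58), AT4G24420 (-2.56), AT5G18065 (-2.34), AT3G24000 (-2.18), AT1G50390 (-2.15) and AT1G79915 (-2.1).

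Among genes with the higher response in upf, those of the auxin and growth lists were IAA4 (1.90), EXPA1 (1.46), IAA2 (1.43) and IAA3 (1.14). Genes with conserved upstream reading frames or known as NMD targets were BZIP1 (1.48), SAC51 (1.26), ERF1-1 (1.11) and SACL1 (1.09). The other higher genes were AT3G49970 (2.83), AT5G02670 (2.54), AT4G09840 (2.48), AT4G09435 (2.46), AT4G34770 (2.41), AT1G21470 (2.18), AT3G24255 (2.12), PKS4 (2.1), AT5G45460 (2.04), AT3G18320 (2.02), AT4G01740 (1.98) and AT2G18560 (1.98).

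In the usage of transcripts within their gene, the higher changes in upf were those of AT4G34140.1 (4.61), LCL1 transcript AT5G02840.5 (4.46), AT1G14970.1 (4.39), AT1G47530.2 (4.23), CTF2A transcript AT2G35660.2 (3.71) and AT5G15640.1 (3.60). The lower changes were those of AT1G47530.1 (-4.23), AT5G15640.2 (-3.60), ULT1 transcript AT4G28190.2 (-3.56), AT3G06590.1 (-3.34) and CTF2A transcript AT2G35660.3 (-3.09).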

How the results depend on the processing

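None of the 220 called genes and 197 called transcripts changed the sign of its difference in the 21 alternative fits, and of the 72 usage calls 1 did, AT1G29040.5. With the 12 libraries fitted alone, the difference of heat responses gave 145 called genes (49 lower) and 75 transcripts (51 higher, 24 lower). Lane 2 alone gave 90 higher genes and 113 transcripts (67 higher, 46 lower), and lane 1 alone 106 transcripts (54 higher, 52 lower) and 21 with lower usage. With equal totals 6891 genes fell in WT, and 7946 changed in upf, 6376 of them down. With a pseudocount of 10, 168 genes were lower in upf at 0 min and 153 at 30 min.

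Without 1 library at a time, the difference of heat responses gave 154 to 245 genes (87 to 166 higher, 61 to 84 lower) and 125 to 201 transcripts (64 to 130 higher, 48 to 83 lower), and usage gave 55 to 107 (30 to 62 higher, 22 to 49 lower). The 87 came without upf replicate 1 at 0 min. Transcript counts fell by over 1.5 times without WT replicate 1 at 30 min (125), upf replicate 2 at 0 min (125), or upf replicate 1 or 2 at 30 min (131 and 128). The usage counts of 62 and 49 came without WT replicate 2 and without upf replicate 2 at 30 min.

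Of the 220 genes, 170 were shared with the 181 called with equal totals, 163 with 185 at a pseudocount of 10, 185 with 196 without the filter, 128 with 145 in the 12 libraries, and 148 with 174 and 133 with 152 in lanes 1 and 2. Median-of-ratios scaling and robust limma kept all 220. With the replicate block 246 genes were called, 217 of them shared, and no named gene changed its call, though the numbers were not taken to pair the samples. Of 147 named genes, calls were lost for 5 without the filter (HSP101, BAG6, HAI2, IAA3 and SACL1), for 13 in the 12 libraries, HSP101 and WRKY70 among them, for 10 in lane 1 and for 8 in lane 2; both of the first 2 settings left 2 called chaperones in place of 4. The count of 14 genes past a 3′ end was 12 at 500 bases, 20 at 5000, 20 for genes raised 4-fold, 11 for 16-fold, 15 and 12 at levels of 300 and 3000, and 15 without upf replicate 3 at 30 min, alternatives chosen after seeing the data. Depth limits genes near 10 counts, such as AT4G09840 and AT1G21470, whose calls were lost with a pseudocount of 10.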

Other observations

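Some gene groups outside the lists are given as values, chosen after their values were seen and with no test. Over all genes tested, 0.689% had a called higher response in upf and 0.371% a lower one. Of 185 genes annotated as cytochrome P450, oxidases of many secondary pathways, 6 had a called higher response in upf (3.24%), CYP705A15, CYP705A21, CYP81H1, CYP81D5, CYP81D4 and AT1G66540, and 1 a lower one (0.541%), CYP81D7, with a median of 0.10. Close relatives in this family may share reads. Of 258 pentatricopeptide repeat genes, which mostly process organelle RNA, 3 were higher (1.16%) and 6 lower (2.33%), with a median of 0.01. The 57 SAUR-like genes, small auxin-induced genes of cell growth, had a median difference of 0.39, with medians of -2.68 with heat in WT and -1.96 in upf, and 1 was called.

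Single called genes outside the lists, also picked after their values were seen, included transporters in both directions. The zinc transporter ZIP4 (-1.56), the cation channel CNGC19 (-1.49), the vacuolar metal exporter NRAMP4 (-1.33), the cation exchanger CAX3 (-1.28) and the zinc transporter ZIF1 (-1.04) were lower, and the magnesium transporter MGT6 (1.03) was higher. The higher calls also held TCP3, a factor of leaf growth (1.89), YUC8, an enzyme of auxin synthesis (1.79), APR1, an APS reductase of sulphate use (1.56), and HAT1, a homeobox factor (1.02). The calls of ZIF1, MGT6, YUC8 and HAT1 were lost in at least 1 of the fits without a library.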
